A study of Mus musculus with 6 samples.

Results

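The transcripts of 10 genes that write, maintain or remove DNA methylation were measured in cultured mouse keratinocytes with and without Dnmt1, the maintenance methyltransferase. The genes were taken by name from the count table, which listed 43629 genes: Dnmt1, Dnmt3a, Dnmt3b, Dnmt3l, Uhrf1, Uhrf2, Tet1, Tet2, Tet3 and Tdg. All 10 were found and all 10 had enough counts to be tested, among 16829 genes tested. Poly(A) RNA came from the epidermis of 3 control and 3 Dnmt1Δ/Δep mice taken at P3, postnatal day 3, after keratinocytes had been grown for 5 days by the labels and methods (a legend of the study gives a shorter time). Dnmt1Δ/Δep mice carried floxed Dnmt1 on both alleles (Dnmt1 f/f) and K5-Cre, a Cre driven by the Keratin 5 promoter, so that the deletion is directed to epithelial cells of the skin and not to melanocytes, fibroblasts, vessels or blood cells in the preparation. The study names Dnmt1 f/f and Dnmt1 f/+ mice without Cre as controls, so controls could also carry floxed alleles. In a survival plot it also counts Dnmt1Δ/+ep mice, which carry K5-Cre, with the controls. Which genotype each control library had is not given in the sources used here. All 6 libraries were labelled female, and the background of the mice was a mix of C57BL/6J and 129SV.

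DNA methylation in mammals sits mainly on the cytosine of CpG dinucleotides. DNMT3A and DNMT3B set it on unmethylated DNA, DNMT3L is a catalytically inactive cofactor of theirs used in germ cells, and DNMT1 copies it onto the new strand after replication, guided by UHRF1, which binds hemimethylated CpG. TET1, TET2 and TET3 oxidise 5-methylcytosine, and TDG, a glycosylase, cuts out the most oxidised forms so that base excision repair can put back an unmodified cytosine.

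Libraries held 53433121 to 115526598 counts on genes, so that the detection floor of 3 counts corresponded to 0.0254 to 0.0558 CPM, gene counts scaled to library size (TMM). A gene was called when the adjusted p of edgeR's quasi-likelihood test was at most 0.05 and the log2 fold change was at least 1 in size. By this rule 6.42% of all genes tested were called, 6.03% higher and 0.392% lower in Dnmt1Δ/Δep cells. By adjusted p alone 9.36% passed, 7.71% higher and 1.66% lower. The groups did not overlap for 29.9% of the genes tested, with 18.2% above and 11.7% below control. Keratinocyte genes were at the top of the marker lists in every library, with summed CPM of the 7 markers of 28410 to 31903 in control and 20884 to 21623 in Dnmt1Δ/Δep cells. Of these, Krt5 and Krt14 were lower by adjusted p alone, at 70.8% and 65.5% of control. Cdh1, Itga6 and Trp63 overlapped between groups, at 100.1%, 113.4% and 83.4% of control. The differentiation keratins Krt1 and Krt10 had means at 20.3% and 33.6% of control (adjusted p = 0.085 and 0.069), but control replicate 1 lay apart from the other controls and within or near the Dnmt1Δ/Δep range, at 53.2 CPM of Krt1 (356 and 530.2 in the other controls, 59.2 to 66.1 in Dnmt1Δ/Δep libraries) and 9.63 CPM of Krt10. Markers of other skin cells were also present, and their part in the results on the methylation genes was not tested. The 6 melanocyte markers summed to 207 to 546 CPM in control against 659 to 887 CPM in Dnmt1Δ/Δep cells (none called). In the same order of groups, the 6 fibroblast markers summed to 12.2 to 28.02 and 12.0 to 58.8 CPM (none called). The 4 endothelial markers summed to 4.39 to 16.8 and 14.1 to 22.4 CPM. Among them, Pecam1 and Cdh5 were called higher, and Tie1 lay above control without a call (adjusted p = 0.067). Kdr overlapped between groups and had a slightly lower mean, 6.11 after 6.81 CPM (log2 fold change -0.16, adjusted p = 0.93). It supplied 13.3 CPM of the endothelial sum of control replicate 1. The 8 leukocyte markers summed to 0.275 to 1.02 CPM in control against 2.58 to 4.55 CPM in Dnmt1Δ/Δep cells, with Itgam and Csf1r called higher. The merged exons of Itgam overlap those of Gm49368 over 68.7% of their length. Cd74 and H2-Aa were also above control in every Dnmt1Δ/Δep library, at means of 0.0434 and 0.338 CPM for Cd74 and 0.0062 and 0.118 CPM for H2-Aa. The defining marker Ptprc had 0, 0 and 2 counts in control against 12, 1 and 0 in Dnmt1Δ/Δep libraries, and Cd3e had at most 2 counts in any library.

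Of the 10 genes, only Dnmt1 was called, and it was called lower, as were 0.392% of all genes tested. Tet3 and Tdg were lower by adjusted p alone, so that 3 of 10 passed that rule, all lower, against 1.66% of all genes. The 3 include Dnmt1, whose fall was fixed by the design, and without it 2 of 9 passed. Dnmt3l was the only gene with a higher level in every Dnmt1Δ/Δep library than in every control library, and Dnmt1, Tet1, Tet3 and Tdg had the reverse order. Over all genes tested 18.2% lay above and 11.7% below control in this way. The remaining 5 genes, Dnmt3a, Dnmt3b, Uhrf1, Uhrf2 and Tet2, overlapped between groups. The median log2 fold change was -0.17 over the 10 genes and -0.09 over the 9 genes without Dnmt1, against -0.00089 over all genes tested.

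**Figure D1:**
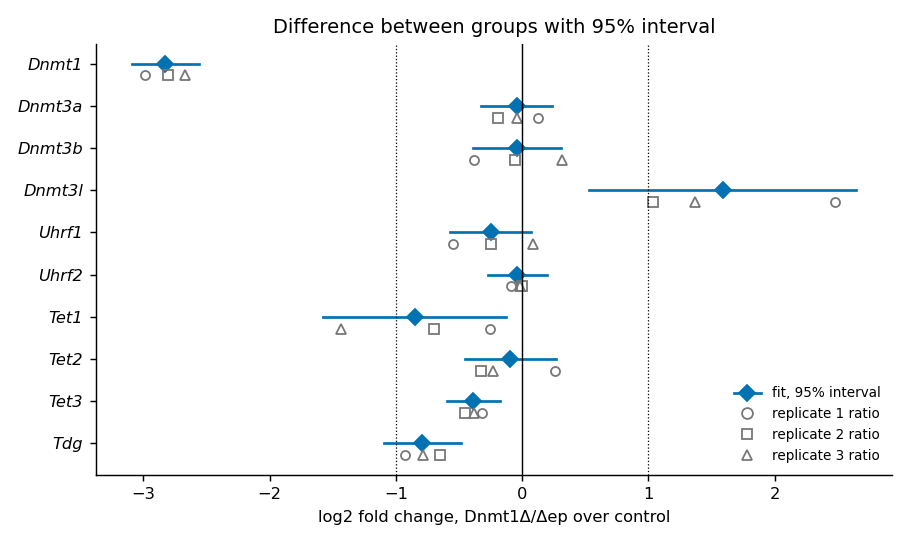
Log2 fold change of each gene, Dnmt1Δ/Δep over control (x axis), as fitted by edgeR over 3 libraries a group with its 95% interval (diamond and bar) and as the ratio of libraries with the same replicate number (open symbols). Dotted lines mark a 2-fold change in each direction, and only the interval of Dnmt1 lies wholly outside them.

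Dnmt1 (chr9:20907209-20959888 on the minus strand, GRCm38) was the gene deleted and checks the labels. Its level was 394, 379 and 324 CPM in control mice but 49.7, 54.3 and 50.7 CPM in Dnmt1Δ/Δep mice. No Dnmt1Δ/Δep library came near the control range, and the 3 of them lay closer together than the controls did. The mean fell from 366 ± 37.2 to 51.6 ± 2.44 CPM (SD, n = 3 each), to 14.1% of control, with a log2 fold change of -2.83 (SE 0.11, 95% interval -3.09 to -2.56, adjusted p = 8.1e-05 by edgeR). The counts are summed over the whole gene and do not separate the deleted exons from the rest, and in bulk samples fewer cells with Dnmt1 RNA and less of it per cell cannot be told apart. What share of the remaining Dnmt1 counts came from cells that K5-Cre does not reach was not tested.

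For the genes on either side of Dnmt1 no difference was detectable at this precision. Eif3g, a translation initiation factor subunit 8586 bases away, had 230 ± 54.5 CPM in control against 216 ± 20.4 CPM in Dnmt1Δ/Δep cells (95% interval of the log2 fold change -0.50 to 0.31, adjusted p = 0.83). S1pr2, a sphingosine-1-phosphate receptor 2473 bases away, had 18.6 ± 2.65 and 18.7 ± 0.434 CPM (95% interval -0.31 to 0.32, adjusted p = 0.98).

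To compare genes, counts were also divided by the length of the merged exons (RPKM, CPM per kilobase). On this scale Dnmt1 stood highest of the 10 genes in control cells, at 49.6 ± 5.04 RPKM (SD, n = 3). Its partner Uhrf1 followed at 34.3 ± 6.02 RPKM and Tet3 at 12.5 ± 0.805 RPKM. Dnmt3a at 5.96 ± 0.814 and Uhrf2 at 4.67 ± 0.316 RPKM came next, then Tdg at 3.06 ± 0.244, Dnmt3b at 2.96 ± 0.351 and Tet2 at 1.90 ± 0.251 RPKM. Dnmt3l at 0.0925 ± 0.0464 and Tet1 at 0.0733 ± 0.0224 RPKM were lowest, Dnmt3l standing 20.5-fold below Tet2. Neighbours in this order overlapped between libraries only for Tdg and Dnmt3b and for Dnmt3l and Tet1. The order depends on the length given to a gene: per longest transcript, Uhrf2 (11.3 RPKM) stood above Dnmt3a (10.2 RPKM), and the other genes kept their places.

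**Figure D2:**
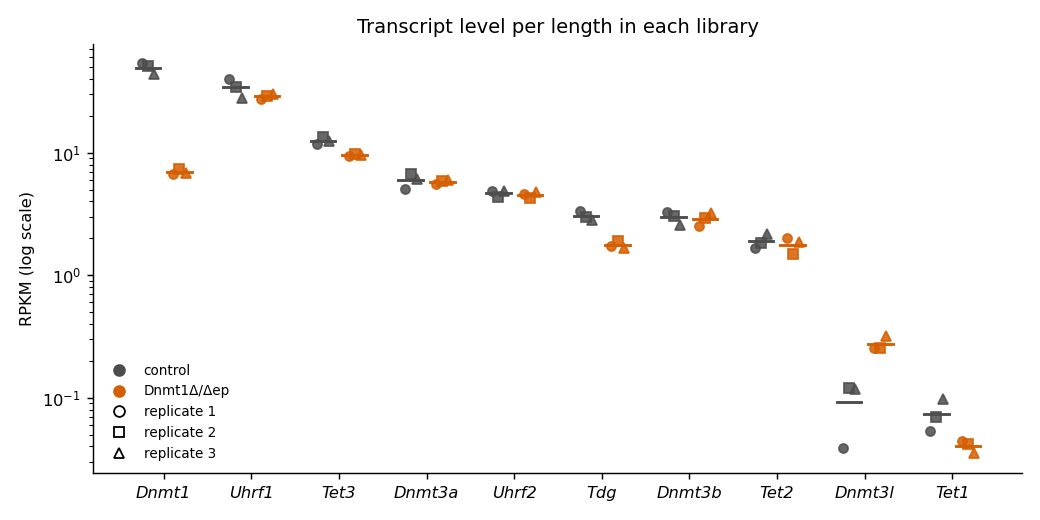
Level of each gene in RPKM (y axis, log scale) in the 3 control (grey) and 3 Dnmt1Δ/Δep libraries (orange), with the mean as a line and the symbol giving the replicate number. Genes are ordered by their control mean, from Dnmt1 at 49.6 RPKM to Tet1 at 0.0733 RPKM.

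For the de novo methyltransferases no difference beyond the spread between libraries was found. Dnmt3a (chr12:3806007-3914443) had 84.3, 111 and 102 CPM in control against 92.0, 97.4 and 99.3 CPM in Dnmt1Δ/Δep libraries, with all 3 of the latter inside the control range. The log2 fold change of Dnmt3a was -0.04 (95% interval -0.32 to 0.23, adjusted p = 0.89), which leaves room for changes between 0.800-fold and 1.18-fold. Dnmt3b (chr2:153649450-153687730) had 16.7, 15.5 and 13.2 CPM in control against 12.8, 14.9 and 16.4 CPM in Dnmt1Δ/Δep libraries. The log2 fold change of Dnmt3b was -0.04 (95% interval -0.39 to 0.31, adjusted p = 0.92). Neither gene showed a direction, since the sign of each depended on which library was left out.

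With Dnmt1 low and the other 2 catalytic genes near their control level, the make-up of the methyltransferase transcripts differed between groups. Dnmt1, Dnmt3a and Dnmt3b summed to 58.5 ± 5.11 RPKM in control and 15.6 ± 0.765 RPKM in Dnmt1Δ/Δep cells (SD, n = 3). Dnmt1 supplied 84.7% ± 1.62 of this sum in control and 44.7% ± 1.62 in Dnmt1Δ/Δep cells. Dnmt3a supplied 8.20%, 10.9% and 11.7% in control mice and 37.4%, 36.3% and 37.2% in Dnmt1Δ/Δep mice, a difference between means of 26.7 percentage points. Dnmt3b went from 5.05% ± 0.210 to 18.3% ± 1.54. The groups did not overlap for any of these shares, and the exact two-sided permutation test gave p = 0.1, the smallest value that 3 against 3 libraries allow. Because Dnmt1 is part of the sum, its deletion raises the other 2 shares even at unchanged levels. The test therefore says nothing on Dnmt3a or Dnmt3b beyond the fall of Dnmt1. Which gene was the larger share in Dnmt1Δ/Δep cells depended on the length used: Dnmt1 with merged exons, as above, and Dnmt3a with the longest transcript of each gene (44.9% ± 0.644, against 39.7% ± 1.44 for Dnmt1).

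**Figure D3:**
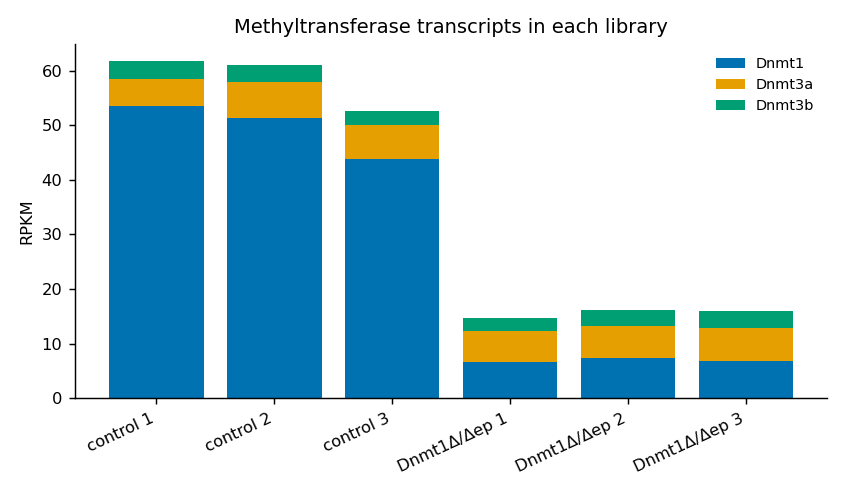
RPKM of Dnmt1, Dnmt3a and Dnmt3b stacked for each library (y axis from 0). The control bars reach 52.6 to 61.8 RPKM and the Dnmt1Δ/Δep bars 14.8 to 16.1 RPKM, with the Dnmt3a and Dnmt3b segments of similar height in both groups.

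Dnmt3l (chr10:78041947-78063622), the germ cell cofactor, was detected at a low level. Its counts were 11, 35 and 19 in control and 45, 66 and 112 in Dnmt1Δ/Δep libraries. On the CPM scale this was 0.116, 0.359 and 0.354 against 0.755, 0.763 and 0.949, so that the lowest Dnmt1Δ/Δep library stood above the highest control. The mean was 2.98-fold higher in Dnmt1Δ/Δep cells, with a log2 fold change of 1.59 (SE 0.45, 95% interval 0.53 to 2.65), but the adjusted p of 0.073 by edgeR missed the threshold. The call depended on the analysis: Dnmt3l was called with the replicate number as a block (log2 fold change 1.66, adjusted p = 0.048), by DESeq2 (1.56, adjusted p = 0.012) and without control replicate 1 (adjusted p = 0.049), the library with the lowest level. It was not called in the other 8 alternatives, with adjusted p of up to 0.20. The merged exons of Dnmt3l overlap those of Aire over 2.24% of their length. Per length its Dnmt1Δ/Δep level was 0.275 ± 0.0368 RPKM, far under the 2.87 ± 0.355 RPKM of Dnmt3b in the same cells.

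The annotated starts of Dnmt3l held fewer CpG than most starts of the other genes, though not few among promoters as a whole. In windows of 250 bases before to 50 bases after a RefSeq start (GRCm38.p6), the 3 starts of Dnmt3l held 6, 4 and 3 CpG, against a median of 7 and quartiles of 3 and 20 over 32851 promoters of all genes. Starts of Tet2 held 57, Dnmt3a up to 47, Dnmt3b 30, Uhrf2 28, Tdg 26 and Tet3 22 CpG. Dnmt1 and Uhrf1 each had a start with 33 CpG, beside CpG-poorer starts with 2 and 12 in Dnmt1 and 12 in Uhrf1, and Tet1 had 17. The upstream bases of the Dnmt3l start with the fewest CpG and of the CpG-dense Uhrf1 start are shown to make this contrast visible, with each CpG in capitals, 5′ to 3′. The first covers chr10:78055085-78055334 and the second chr17:56304063-56304312, both on the plus strand.
Dnmt3l: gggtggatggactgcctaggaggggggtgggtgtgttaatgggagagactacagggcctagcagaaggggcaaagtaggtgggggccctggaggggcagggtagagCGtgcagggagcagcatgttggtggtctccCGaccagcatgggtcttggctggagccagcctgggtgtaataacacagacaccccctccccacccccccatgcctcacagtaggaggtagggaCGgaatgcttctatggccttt
Uhrf1: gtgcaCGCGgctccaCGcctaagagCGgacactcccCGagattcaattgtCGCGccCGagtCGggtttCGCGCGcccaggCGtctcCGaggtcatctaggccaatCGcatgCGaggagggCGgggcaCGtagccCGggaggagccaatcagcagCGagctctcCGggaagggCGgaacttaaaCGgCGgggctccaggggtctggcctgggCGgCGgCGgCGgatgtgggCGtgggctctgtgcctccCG
The Uhrf1 stretch contains TTTCGCGC, one of the strings TTTCCCGC, TTTGGCGC, TTTCGCGC and TTTGCCGC that resemble the binding site of E2F, a factor family of S phase genes. At least 1 of these strings, on either strand and allowing overlaps, was present in 2.26% of all promoter windows, and the Dnmt1 window with 33 CpG (chr9:20952574-20952873) held 2 matches. No methylation was measured in these files, and the matches are a description of the letters.

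UHRF1 brings DNMT1 to replicated DNA, and its relative UHRF2 binds hydroxymethylated DNA. Uhrf1 (chr17:56303321-56323486) had 171, 147 and 120.0 CPM in control against 117, 124 and 128 CPM in Dnmt1Δ/Δep libraries. Replicates 2 and 3 of the Dnmt1Δ/Δep cells lay inside the control range and replicate 1 just below it. The log2 fold change of Uhrf1 was -0.25 (SE 0.14, 95% interval -0.57 to 0.07, adjusted p = 0.33). This interval does not overlap that of Dnmt1. Uhrf2 (chr19:30030513-30093722) had 41.9, 37.0 and 41.5 CPM in control against 39.3, 36.9 and 41.0 CPM in Dnmt1Δ/Δep libraries. Its log2 fold change was -0.04 (95% interval -0.27 to 0.20, adjusted p = 0.88). Uhrf1 made up 87.8% ± 2.13 of the UHRF transcripts per length in control and 86.4% ± 0.729 in Dnmt1Δ/Δep cells (exact two-sided permutation p = 0.4).

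The TET dioxygenases differed in level far more than in response. Tet3 (chr6:83362373-83459084) supplied 86.4% ± 1.59 of TET transcripts per length in control and 84.0% ± 2.30 in Dnmt1Δ/Δep cells (exact two-sided permutation p = 0.2, without pairing). Between libraries of the same replicate number the Tet3 share was lower in Dnmt1Δ/Δep cells in all 3 pairs (87.2% and 82.1%, 87.4% and 86.6%, 84.6% and 83.4%) and that of Tet2 higher in all 3. The CPM values of Tet3 were 196, 223 and 207 in control and 157, 163 and 159 in Dnmt1Δ/Δep libraries, with no overlap. Tet3 was at 76.5% of control, with a log2 fold change of -0.39 (SE 0.09, 95% interval -0.60 to -0.18, adjusted p = 0.039). This is less than a 2-fold change, and the adjusted p stayed at or under 0.05 in 5 of 11 alternatives. It was lost with no filter on low counts (0.062) and without control replicate 2 or 3 or any 1 of the Dnmt1Δ/Δep libraries (0.083 to 0.17).

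Tet2 (chr3:133463679-133545139) had 28.2, 31.1 and 36.6 CPM in control against 33.9, 24.9 and 31.2 CPM in Dnmt1Δ/Δep libraries, which overlapped (log2 fold change -0.09, 95% interval -0.45 to 0.27, adjusted p = 0.80). Tet1 (chr10:62804570-62908996), the TET gene of pluripotent cells, was barely present. Its counts were 78, 104 and 81 in control and 41, 56 and 64 in Dnmt1Δ/Δep libraries, or 0.825, 1.07 and 1.51 against 0.688, 0.648 and 0.542 CPM. The groups did not overlap, with a mean at 55.2% of control, but the adjusted p was 0.15 (log2 fold change -0.85, 95% interval -1.58 to -0.13).

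TDG acts after the TET enzymes. Tdg (chr10:82629828-82650799) had 17.9, 16.1 and 15.3 CPM in control against 9.38, 10.2 and 8.87 CPM in Dnmt1Δ/Δep libraries. The groups lay well apart, with a mean at 57.9% of control, a log2 fold change of -0.79 (SE 0.13, 95% interval -1.09 to -0.49) and an adjusted p of 0.011. After Dnmt1 this was the lowest adjusted p of the 10 genes. It rose to 0.055 without Dnmt1Δ/Δep replicate 1 and to 0.055 without control replicate 2, and stayed at or under 0.05 in the other 9 alternatives.

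Tdg shares most of its coding sequence with processed pseudogenes, intronless copies made from its mRNA. One of these, Gm9855 (chr10:42054113-42055306 on the minus strand in GENCODE, within the longer RefSeq gene Tdg-ps2 at chr10:42052558-42055453), had 1, 0 and 6 counts in control against 563, 878 and 1172 counts in Dnmt1Δ/Δep libraries. Its fitted log2 fold change was 8.29 (SE 0.72). This is given as a description, since the gene was chosen for its values and passed the filter on low counts only through the Dnmt1Δ/Δep libraries. The size of this fold rests on few control counts, 6 of the 7 from control replicate 3: the log2 fold change was 10.54 without that library and 7.57 without control replicate 2. Gm9855 was found in a search for transcripts at least 95% identical to the 10 genes over at least 100 bases. Over the 1194 bases of its GENCODE transcript it matched bases 230 to 1423 of the longest Tdg transcript at 99.2%, with 9 differences and an identical run of 756 bases. The stretch with the most differences is shown, with the 4 bases that differ in capitals. In Tdg it lies in the coding sequence at bases 1220 to 1319 of the transcript, across exon 9 (chr10:82648018-82648078) and exon 10 (chr10:82648578-82648616), and in the copy at bases 991 to 1090.
Tdg: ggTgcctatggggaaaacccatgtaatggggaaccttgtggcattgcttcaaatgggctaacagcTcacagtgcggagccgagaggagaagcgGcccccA
Gm9855: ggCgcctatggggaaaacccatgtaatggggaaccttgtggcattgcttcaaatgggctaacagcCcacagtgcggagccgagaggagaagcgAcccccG
Reads that lie within the identical run of 756 bases can match both loci and are then left out of counts of uniquely mapped reads.

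The CPM of Tdg and Gm9855 together were 17.9, 16.1 and 15.4 in control and 18.8, 20.4 and 18.8 in Dnmt1Δ/Δep libraries. The sum was thus slightly higher in every Dnmt1Δ/Δep library than in any control, the reverse of Tdg alone, with means of 16.5 ± 1.27 and 19.3 ± 0.915 CPM (exact two-sided permutation p = 0.1, the smallest possible). Gm9855 made up 0.262% ± 0.403 of the sum in control and 50.9% ± 1.65 in Dnmt1Δ/Δep cells. When the counts were added before the fit, the log2 fold change was 0.23 (SE 0.11, adjusted p = 0.28). How far reads shared by the loci moved the count of Tdg was not tested. Of the other copies, Tdg-ps on chromosome 15 had counts in every library, at 0.533 ± 0.142 and 0.357 ± 0.106 CPM (adjusted p = 0.45), and Gm5597 on chromosome 7 had at most 2 counts in any library. A further transcript that matched Tdg over 203 bases, AC122846.1, was not analysed here.

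**Figure D4:**
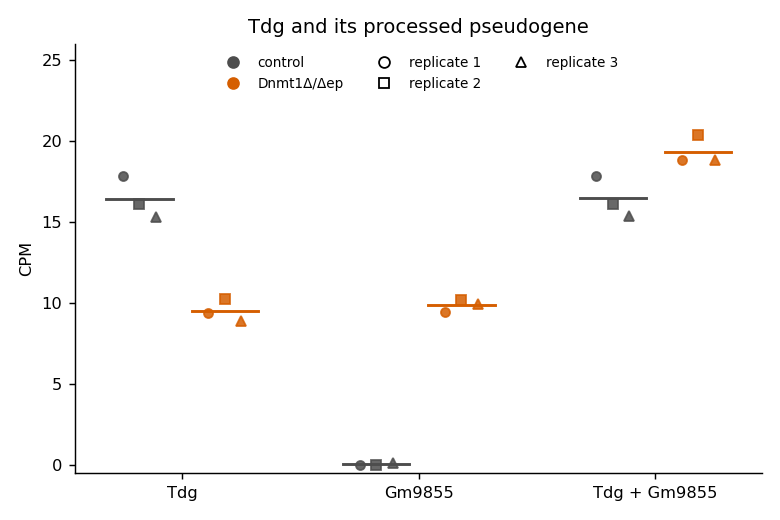
CPM (y axis) of Tdg, of its processed pseudogene Gm9855 and of their sum in the 3 control (grey) and 3 Dnmt1Δ/Δep libraries (orange), with the mean as a line. Tdg lies lower and Gm9855 higher in Dnmt1Δ/Δep cells, and the sum lies at 15.4 to 17.9 CPM in control against 18.8 to 20.4 CPM in Dnmt1Δ/Δep cells.

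At its far end Tdg also overlaps Glt8d2, a gene on the opposite strand, in 367 bases of the transcript. Glt8d2 had 0.814 ± 0.156 CPM in control against 0.326 ± 0.0705 CPM in Dnmt1Δ/Δep cells and was called lower (log2 fold change -1.31, adjusted p = 0.046), a call kept in 5 of 11 alternatives. The flanking genes of Gm9855 among those tested, Armc2 at 35671 bases and Foxo3 at 126535 bases, were not called (adjusted p = 0.80 and 0.30). Uhrf1 has a processed copy too, Gm5648 on chromosome X, which had 0.141 ± 0.0347 and 0.132 ± 0.0822 CPM.

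Genes of the same pathway were described in 7 lists, in which 2 of 82 genes tested were called, both higher, and an eighth list held germline genes that methylation silences. Over all genes tested 6.42% were called, 1.66% were lower by adjusted p alone and 50.1% had a negative log2 fold change. None of the 9 maintenance partners tested, of 10 listed, was called. Their median log2 fold change was -0.33 and 8 of 9 were negative, and 1 passed by adjusted p alone: Lig1, the ligase of replicated DNA, at 164 ± 11.1 CPM in control against 121 ± 8.76 CPM in Dnmt1Δ/Δep cells (log2 fold change -0.44, adjusted p = 0.037). Of 22 S phase genes none was called, 6 were lower by adjusted p alone (1.66% over all genes) and 21 were negative (50.1% over all genes), with a median log2 fold change of -0.36. Slbp, which binds histone mRNA, stood at 70.0% of control (adjusted p = 0.022) and Rrm1, a ribonucleotide reductase subunit, at 70.9% (adjusted p = 0.037). The replication genes Gins2 and Mcm4 stood at 66.4% and 72.1% of control (adjusted p = 0.039 and 0.043). Lig1 and these 4 genes kept an adjusted p at or under 0.05 in 6 to 8 of 11 alternatives. The merged exons of Gins2 overlap those of Gse1 over 67.3% of their length.

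Among 17 genes tested of 19 listed for demethylation by base excision repair, 2 were called, both higher. Apobec3, a cytidine deaminase that restricts retroviruses, rose from 13.4 ± 2.99 to 63.0 ± 7.09 CPM (log2 fold change 2.24, SE 0.18, adjusted p = 7.9e-04). Apobec1, the deaminase that edits the mRNA of apolipoprotein B, rose from 3.97 ± 0.134 to 14.1 ± 2.69 CPM (log2 fold change 1.83, SE 0.18, adjusted p = 0.0014). Both were called in all 11 alternatives, and neither is a glycosylase or repair enzyme. Of the repair genes proper, Neil3, a glycosylase, was lower by adjusted p alone (15.9 ± 2.24 to 10.4 ± 0.638 CPM, adjusted p = 0.043), and the list had a median log2 fold change of -0.21 with 12 of 17 negative.

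The readers and suppliers of the pathway showed little difference. None of 10 methyl-CpG readers was called, with a median log2 fold change of -0.11. One of them, Zbtb38, which binds methylated DNA through zinc fingers, was higher by adjusted p alone, at 39.6 ± 3.95 and 61.2 ± 4.92 CPM (log2 fold change 0.63, adjusted p = 0.016). None of 16 one-carbon and S-adenosylmethionine genes tested, of 19 listed, was called, with a median of -0.16, and Mat2b, the regulatory subunit of methionine adenosyltransferase, was lower by adjusted p alone (64.8 ± 2.23 and 48.3 ± 0.947 CPM, adjusted p = 0.024). Zbtb38, Mat2b and Neil3 kept this in 6 or 7 of 11 alternatives. None of 7 TET cofactor and partner genes passed in either way (median -0.05), the lowest p being that of Idh2, which makes 2-oxoglutarate, at 111 ± 21.7 and 87.8 ± 9.90 CPM (adjusted p = 0.28). The tRNA methyltransferase Trdmt1, a relative of the DNMT genes, had 13.8 ± 0.340 and 13.6 ± 0.136 CPM (95% interval of the log2 fold change -0.28 to 0.23).

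The last list held 12 germline genes known to be silenced by promoter methylation. Of these, 9 passed the filter on low counts and were called higher, but with 0 to 4 counts over the 3 controls together they passed it through the Dnmt1Δ/Δep libraries alone, so that the direction of the genes tested was fixed by the filter and the counts are given as a description. The other 3 were too low to be tested: Ddx4 had 6, 4 and 0 counts in control against 2, 9 and 21 in Dnmt1Δ/Δep libraries, Sycp3 had 10, 3 and 3 against 15, 9 and 25, and Stk31 had none against 19, 8 and 34. Gtsf1, a piRNA pathway gene, had no count in any control and 353, 360 and 559 counts in Dnmt1Δ/Δep libraries, at least 395-fold higher against a floor of 3 counts over the control group. Asz1 had 0, 0 and 2 counts in control against 321, 349 and 761 in Dnmt1Δ/Δep libraries. Mov10l1, a piRNA helicase, had 0, 2 and 1 counts and 125, 112 and 252, and Dazl, an RNA-binding protein of germ cells, had 3, 0 and 0 counts and 117, 69 and 294. Dnmt3l, the germ cell gene among the 10, had at least 11 counts in every control library.

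**Figure D5:**
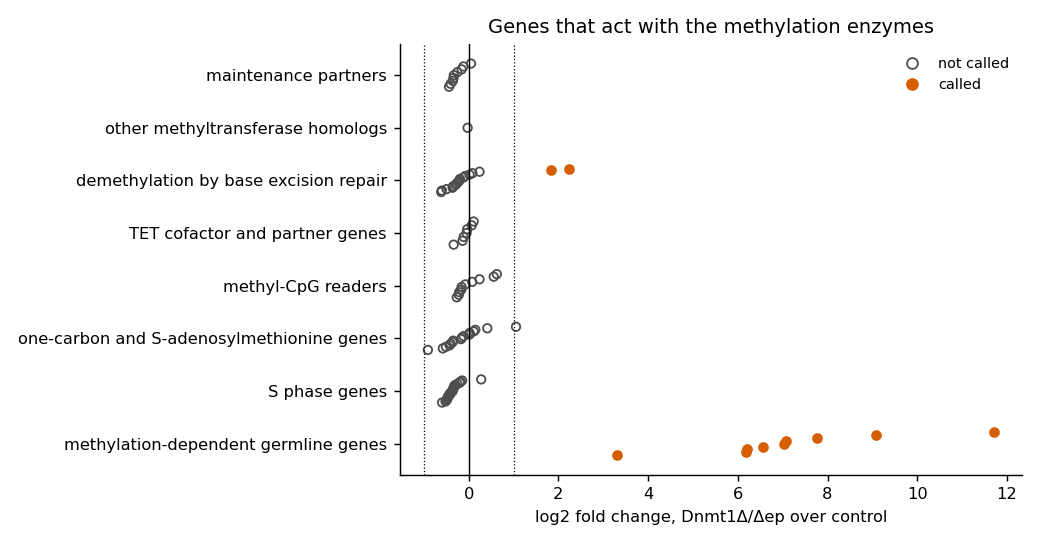
Log2 fold change of each gene tested (x axis) in the 8 lists (y axis), with called genes filled and dotted lines at a 2-fold change. The germline genes lie to the right of all others, followed by Apobec3 and Apobec1. The fitted values of germline genes without control counts depend on the prior count of the fit and are no measure of size.

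Profiles most like those of Dnmt1 and Uhrf1 were taken as the smallest distance between centred log2 CPM profiles over the 6 libraries, among 9309 genes with a mean of at least 10 CPM. Nearest to Dnmt1 were Chdh, a mitochondrial choline dehydrogenase (log2 fold change -2.91, adjusted p = 0.0063), then Megf6, Zbtb16, Smtnl2 and Slc1a3 (-1.82, -1.54, -2.16 and -1.39). The distances ran from 1.38 to 1.89 log2 units. Distances grow with the size of the change, so those of Dnmt1 and Uhrf1 are not comparable. Nearest to Uhrf1 were Kcnk1, Nup107, Exosc5, Dnph1 and Gart, at distances of 0.0914 to 0.114 log2 units, with log2 fold changes of -0.31 to -0.20 and no adjusted p at or under 0.05.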

How the data were processed

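Raw gene counts of 6 libraries were used as deposited. Per the study's methods, the authors trimmed reads with cutadapt, filtered contaminants, mapped with STAR and counted reads per gene with htseq-count in union mode. The methods speak of RefSeq genes for counting and of a human genome build with an Ensembl transcriptome for the STAR index, while the deposited table lists mouse Ensembl IDs. Its column names mark uniquely mapped STAR reads. The submitters' processing notes name GRCm38. Reads shared by near-identical loci and reads in overlapping genes are therefore missing from the counts, and no strand setting is given in the sources used here. The 5 rows that name no gene held 8.73% to 12.9% of a library and were left out. Gene names and merged exon lengths came from GENCODE M21 (GRCm38), which matched 42462 of 43629 IDs. Promoter sequences came from RefSeq (GRCm38.p6). A further 18 columns of per-sample values, normalised values and fold changes and p-values of the authors' own comparison were not used here.

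Counts were fitted with edgeR 4.0.16 in R 4.3.3 (TMM, a filter at 10 counts per library and 15 in total, quasi-likelihood test, Benjamini-Hochberg over 16829 genes). A 95% interval is the standard error times the t quantile of the fit. The filter, the TMM factors (0.980 to 1.02) and the length used for RPKM can change the values, and intervals cover the spread between libraries only. The script was tested on simulated data. Single values used an exact two-sided permutation test. Copies were searched with blastn 2.17.0. Alternatives were DESeq2 1.42.0, RLE and upper-quartile factors, no filter, the replicate number as a block, each library left out, and for shares the longest transcript. Same-numbered libraries shared a flow cell lane per their deposited names, and their deviations from the group means correlated at 0.43, 0.28 and 0.30, so the numbers pair the libraries. The main fit, its intervals and the permutation tests did not use this pairing, which entered only as the block among the alternatives.

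The genes and lists were chosen with earlier results of these data known. Named were the 10 genes, from each list up to 4 genes of lowest p with adjusted p at most 0.05 or else the gene of lowest p, the neighbours of Dnmt1 and the 5 profiles nearest to Dnmt1 and to Uhrf1. Gm9855, Glt8d2 and other overlapping or copied genes were added after their values were seen.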

Additional observations from a re-analysis of the deposited data

How the results depend on the processing

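Over 11 alternatives Dnmt1 stayed called (log2 fold change -2.92 to -2.77), and Uhrf1, Uhrf2, Tet1, Tet3 and Tdg kept a negative sign. Of the 10 genes, 2 and not 1 were called with DESeq2 and with the replicate block, through Dnmt3l, and leaving out 1 library gave 1 to 2. The block changed no other call among the 10 genes. By adjusted p alone, 3 genes passed and leaving out 1 library gave 1 to 4. Leaving out 1 library turned the sign of Dnmt3a (-0.15 to 0.043), Dnmt3b (-0.13 to 0.048), Tet2 (-0.19 to 0.011) and Eif3g (-0.22 to 0.11). The sign of S1pr2 turned with DESeq2 (-0.026), RLE factors (-0.021), no filter (-0.029) and without 1 library (-0.11 to 0.078). None of these was called in any setting, and values this near 0 carry no direction. The sum of Tdg and Gm9855, chosen after seeing the data, had a log2 fold change of 0.23, against -0.79 for Tdg alone. The sum also counts reads assigned to Gm9855 and is no measure of Tdg by itself. Gm9855 itself ranged from 7.57 to 10.54 with 1 library left out.

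Of the 82 pathway genes outside the germline list, Apobec1 and Apobec3 were called in all 11 alternatives, joined by Zfp57 without control replicate 1. With the germline genes, whose direction the filter fixed, the count was 10 to 13. Over all genes, 1014 were called higher, 559 to 1183 with 1 library left out and 996 to 1396 in the other alternatives. Called lower were 66 genes, 122 with DESeq2, 107 with no filter and 15 to 180 with 1 library left out. With the longest transcript as gene length, the share of Dnmt3a differed by 31.4 percentage points and not 26.7, and by 25.7 to 27.4 with 1 library left out. The causes were not tested. Depth limits Tet1 and Dnmt3l, which had 41 to 104 and 11 to 112 counts per library, and 3 libraries a group cannot take an exact permutation p below 0.1.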
